A study of Homo sapiens with 12 samples.

Results

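The 7 keratin genes KRT7, KRT8, KRT18, KRT19, KRT80, KRT81 and KRT86 and the microRNA locus MIR622 were followed across 12 RNA-seq libraries of MDA-MB-231-ERβ cells. They were taken by symbol from the deposited table of reads per gene, in which they are 8 of the 12451 entries used. All 8 passed the filter on low values (an RPKM, reads per kilobase of exon and per mega of reads, of at least 1 in at least 3 libraries), as did 11303 genes in all, although KRT86 passed only through the 3 TNFα libraries and MIR622 only through the 9 libraries other than vehicle. The 8 genes were chosen by symbol, with their counts in all 12 libraries and earlier results of these data known. Their values are a description. Neither the adjusted *p* values from the fit across 11303 genes nor the *p* values for ratios of their counts are independent support.

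MDA-MB-231 is a human TNBC cell line, and the derived cells express full-length ERβ under a dox-inducible promoter, in the presence of dox throughout. Dox is named in the labels of 3 groups, and for the E2+ TNFα group it rests on the paper alone. Cells of the vehicle group received ethanol for 5 days, cells of the E2 group 1 nM 17β-estradiol (E2) for 5 days, cells of the TNFα group ethanol for 5 days with 20 ng/ml of the cytokine TNFα for the final 3 h, and cells of the E2+ TNFα group both agents on the same schedule. Each group has 3 replicates, which were plated in triplicate, so that *p* values measure the spread between these cultures of a single line. The question for the listed genes was which keratins differed with E2, with TNFα or with both, and whether MIR622 followed KRT18.

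Keratins are the intermediate filament proteins of epithelial cells, and a filament pairs a type I keratin (KRT18, KRT19) with a type II keratin (KRT7, KRT8, KRT80, KRT81, KRT86). KRT8 and KRT18 are the usual partners of simple epithelia, KRT7 and KRT19 are added in ducts and glands such as those of the breast, KRT80 is a type II keratin found in many epithelia, and KRT81 and KRT86 are hair keratins. KRT8 and KRT18 have left many processed copies in the genome, that is, spliced transcripts that were copied back into DNA, and MIR622 is annotated within a copy of KRT18.

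Totals were 7.65 to 39.9 M assigned reads per library (M, mega), with 35.8 to 39.9 M for vehicle, 19.5 to 30.5 M for TNFα, 7.65 to 15.8 M for E2 and 16.8 to 36.7 M for E2+ TNFα. The mRNA of ESR2, which encodes ERβ, was at 472.5 ± 14.9 CPM (counts per mega of reads; mean ± SD, n = 3) in vehicle, 255 ± 26.7 CPM in TNFα, 306 ± 14.7 CPM in E2 and 448 ± 53.2 CPM in E2+ TNFα libraries. All 8 genes listed as defining for MDA-MB-231 were in the table, with a summed level of 5635 to 7551 CPM. The vehicle libraries stood apart from the 9 others. An adjusted *p* of 0.1 or less was reached by 80.6% to 81.9% of genes in the 3 comparisons with vehicle, against 6.0% to 46.7% among the other groups, and the libraries of both groups did not overlap for 80.9% to 86.6%, against 15.3% to 47.1%. Once trends with the GC content and length of genes were taken out of every library, the calls between E2 and vehicle over all genes were 824 higher and 744 lower, in place of 1116 and 2331. Whether the vehicle libraries were prepared or processed apart from the others is not given in the sources used here, so a technical difference and the treatment cannot be told apart in comparisons with vehicle, and the fold changes of keratins relative to vehicle are given also with the trends of GC content and gene length removed. In bulk samples, fewer cells of a type and less RNA per cell cannot be told apart.

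The sequences below are shown because the MIR622 locus closely resembles KRT18, with which its counts are compared. In the mature miRNA, capitals mark the seed (bases 2 to 8). In the next pair, capitals mark the bases at which the 96-base MIR622 locus (hg38, chr13:90231182-90231277, plus strand) and spliced KRT18 (hg38, chr12:52951615-52951795, plus strand) differ.
hsa-miR-622: aCAGUCUGcugagguuggagc
MIR622: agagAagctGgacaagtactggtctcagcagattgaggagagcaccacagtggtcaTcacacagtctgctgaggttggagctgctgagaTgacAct
KRT18: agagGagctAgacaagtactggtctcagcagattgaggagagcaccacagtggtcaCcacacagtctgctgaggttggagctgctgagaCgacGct
The mature sequence is that of RefSeq (GRCh38.p14, chr13:90231242-90231262), and the other sequences were read from hg38. Of 2370 mature miRNAs in the RefSeq table, 0 others had this seed.

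The locus and KRT18 shared 91 of 96 bases (94.8%). Counted from 1 at the first base of the locus, with the base of MIR622 first, the differences were A5G, G10A, T57C, T90C and A94G. The 21 bases of the mature miRNA (positions 61 to 81) lie between them and occurred unchanged at 1 place in the KRT18 exons. The KRT18 counterpart is spliced, with 31 bases in the exon block 5 of the table (of 8), which ends at 52951645, and 65 bases in block 6, which starts at 52951731. The locus has no such gap and lies within KRT18P27, a 1299-base processed pseudogene (chr13:90230384-90231682) that was 89.7% identical to KRT18 over 1306 aligned positions. GENCODE v44 lists 67 pseudogenes of KRT18 and 51 of KRT8. The locus matched 20 other places in hg38 over at least 80 bases at an identity of at least 90%, and 0 of them over its full length without a mismatch. The closest full-length match among these was 94.8% identical, as was KRT18, so KRT18 was not the only sequence this close.

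Reads were 50 bases long. A window of that length within the locus differed from KRT18 at 1 to 3 positions, and 44 of the 47 windows differed at no more than 2. Of the 47 windows, 7 (14.9%) occurred exactly at another place in hg38, at up to 4 places. In 31 of the 47 windows the matching KRT18 sequence crosses the junction of its exons, while the locus is gapless there. How the authors treated reads with more than 1 match is not given in the sources used here.

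**Figure D1:**
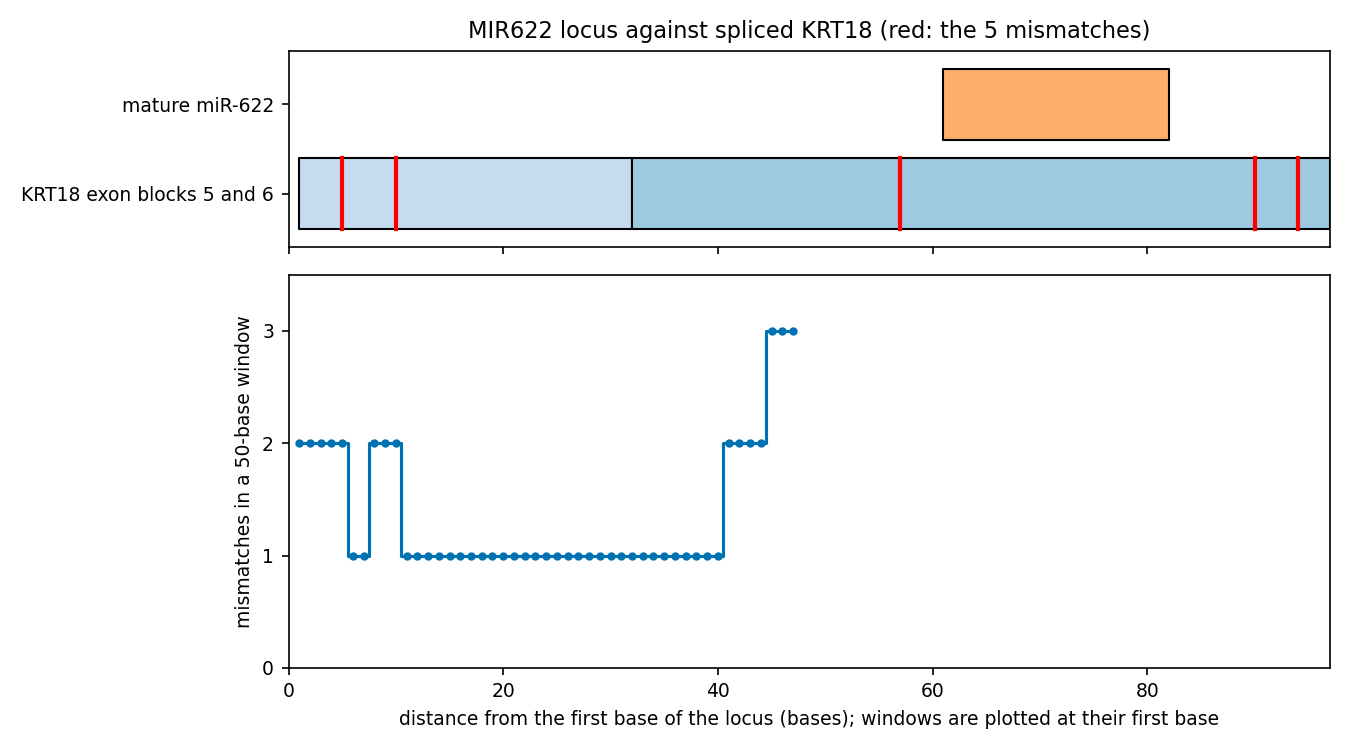
The upper panel maps the 96-base MIR622 locus, by distance in bases from its first base, onto KRT18 exon blocks 5 and 6 (blue) with the 5 mismatches in red and the mature miRNA in orange, and the lower panel plots the number of mismatches to KRT18 in each 50-base window at the window's first base. The mature miRNA holds no mismatch, and 44 of 47 windows have no more than 2.

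MIR622 followed KRT18 closely in the 9 libraries treated with E2, TNFα or both, but not in the vehicle libraries. MIR622 had 0 counts in each of the 3 vehicle libraries. It had 1115, 995 and 758 counts in the TNFα libraries, 992, 572 and 699 in the E2 libraries and 791, 1255 and 1793 in the E2+ TNFα libraries. The same libraries held 32792, 29497 and 20732 counts of KRT18 (TNFα), 29258, 15781 and 19088 (E2) and 24207, 37209 and 52069 (E2+ TNFα). The count of MIR622 was thus a near constant 3.27% to 3.66% of the count of KRT18 in all 9. The mean was 3.48% ± 0.156 (SD, n = 3) in TNFα, 3.56% ± 0.147 in E2 and 3.36% ± 0.0885 in E2+ TNFα libraries, and the ranges of the 3 groups overlapped. For comparison of scale only, the locus is 6.25% as long as the KRT18 exons (1535 bases).

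The vehicle libraries did hold KRT18 counts, namely 20121, 17700 and 19771. At the lowest proportion seen in the other libraries, these would correspond to 657, 578 and 646 counts of MIR622. The 0 counts found allow at most 0.0149%, 0.0169% and 0.0152% of the KRT18 count (3 counts, counting error only). The proportion of MIR622 to KRT18 differed across the 4 groups (exact permutation test of the F statistic, *p* = 0.00539, adjusted *p* = 0.00808 over the 3 ratios tested). The 0 counts in vehicle were known before this test and fixed its outcome, so it is a description only. Without the vehicle libraries, an alternative added after seeing the data, the exact permutation test gave an adjusted *p* of 0.445.

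**Figure D2:**
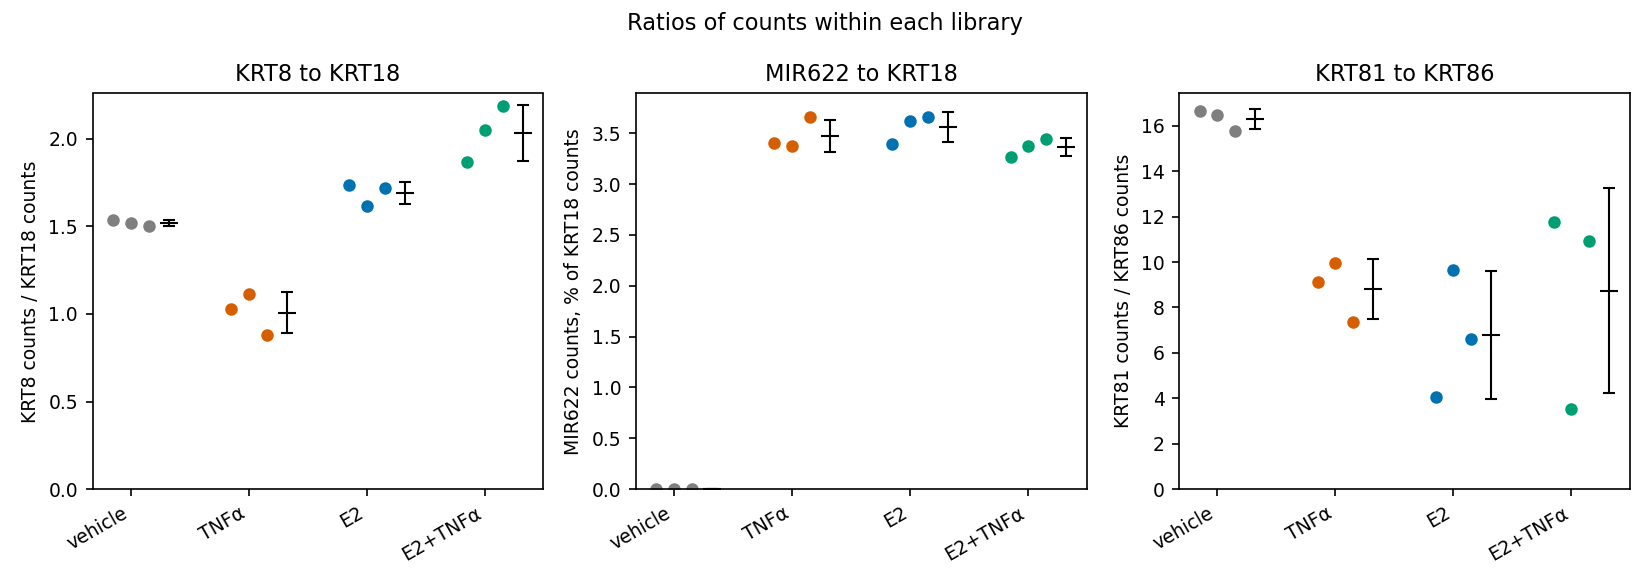
Points are single libraries of the 4 groups and black bars are the mean ± SD (n = 3) of the ratio of counts, for KRT8 to KRT18 (left), MIR622 as a percentage of KRT18 (middle) and KRT81 to KRT86 (right). MIR622 sits between 3.27% and 3.66% of KRT18 in 9 libraries and at 0 in vehicle, while the KRT8 to KRT18 ratio is lowest with TNFα and highest with E2+ TNFα.

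Absence from vehicle together with presence elsewhere was rare in the table. Of 12451 entries, 28 had 0 counts in all 3 vehicle libraries, and MIR622 was the 1 of these with at least 20 counts in each of the 9 others. The next had a mean of 9 counts. The table held 92 microRNA entries shorter than 200 bases, of which 20 were at 0 in all vehicle libraries and 32 were tested. MIR622 had the highest mean count of these 92. In the opposite direction, 2 entries (MTRNR2L6 and MTRNR2L10, named after their values were seen) had 0 counts in all 9 other libraries and 38 to 54 and 58 to 92 counts in vehicle. Both are annotated as nuclear copies of a mitochondrial gene.

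Correlations of log2 CPM placed MIR622 beside KRT18 in the same way. Over the 9 libraries other than vehicle, KRT18 was the most similar of all other genes tested (Pearson's *r* = 0.993), followed by GATD1 (0.986) and ACSS2 (0.984), and KRT8 came at place 653 (0.857). Over all 12 libraries, KRT18 was at place 981 (0.931), and EDARADD (0.999), EIF5AL1 (0.997) and CSAG1 (0.996) were the most similar. These correlations are descriptions over libraries that share treatments, and the 12-library values largely separate vehicle from the rest. EIF5AL1, an intronless relative of EIF5A, also changed its proportion to the spliced gene, from 5.36% to 5.88% of the EIF5A count in vehicle to 71.97% to 85.8% in the other 9. The part of read assignment in these proportions was not tested.

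For MIR622 itself, the level was 0 CPM in each vehicle library. It was 36.7, 32.5 and 39.4 CPM in TNFα, 67.9, 91.2 and 63.2 CPM in E2 and 48.9, 43.9 and 53.7 CPM in E2+ TNFα libraries. Against 3 counts per vehicle library, these are at least 520-fold (TNFα), 1065-fold (E2) and 702-fold (E2+ TNFα) higher. They count reads assigned to the locus in mRNA libraries, and the mature miRNA was not measured. Among the treated groups, MIR622 was 1.03 ± 0.16 (log2 fold change ± SE) higher in E2 than in TNFα (adjusted *p* = 0.000189), and KRT18 1.00 ± 0.14 (4.31e-05). With the GC and length trends removed, this difference of MIR622 came to 0.23 (edgeR, adjusted *p* = 0.383), while that of KRT18 was 0.82 (2.01e-07). Between E2+ TNFα and E2, MIR622 differed by -0.60 ± 0.16 (adjusted *p* = 0.0646) and KRT18 by -0.52 ± 0.14 (0.062). Between E2+ TNFα and TNFα, MIR622 differed by 0.43 ± 0.16 (adjusted *p* = 0.0444) and KRT18 by 0.48 ± 0.14 (0.0131), but the value of MIR622 turned to -0.12 with the GC and length trends removed. None of these passed the threshold for a call, which is a log2 fold change of at least 1.5 in size with *p* under 0.05 and an adjusted *p* of at most 0.1.

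The simple-epithelial keratins were all higher in libraries with E2. KRT8 was at 748, 631.5 and 651 CPM in vehicle, 1109, 1073 and 950.03 in TNFα, 3477, 4075 and 2970.2 in E2 and 2798, 2667 and 3411 CPM in E2+ TNFα libraries. KRT18 was at 487, 416 and 433 CPM in vehicle, 1079.8, 962 and 1078 in TNFα, 2002, 2517 and 1726 in E2 and 1496, 1302 and 1560.04 CPM in E2+ TNFα libraries. Every library with E2 was thus above every library without it for both partners, while TNFα libraries were between vehicle and E2 libraries.

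KRT19, the type I keratin of ducts, had the widest step with E2 of the 4. It was at 317, 261 and 272 CPM in vehicle and at 298, 264 and 250.1 CPM in TNFα libraries, which overlapped. It was at 2654, 3113 and 2028 CPM in E2 and 1985, 1939.9 and 2415 CPM in E2+ TNFα libraries. KRT7, a type II keratin of ducts and glands, was at 361, 302 and 318 CPM in vehicle, 1013, 805 and 968 in TNFα, 1477, 1834 and 1261 in E2 and 1263, 1262 and 1718 CPM in E2+ TNFα libraries. For KRT7, TNFα alone already gave values well above vehicle, and the E2 libraries were above those in turn.

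KRT80 was highest on average with TNFα alone, as were KRT81 and KRT86, which are described next. It was at 50.6, 49.2 and 47.1 CPM in vehicle, 398, 331 and 458 in TNFα, 256.2, 331 and 249.9 in E2 and 216, 188 and 219 CPM in E2+ TNFα libraries. All 9 treated libraries were above vehicle, and the E2+ TNFα libraries were below both groups given 1 agent. The lowest TNFα library and the highest E2 library were both at 331 CPM.

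With E2, the hair keratins KRT81 and KRT86 ran the other way. KRT81 was at 25.4, 20.5 and 21.8 CPM in vehicle and 59.7, 40.3 and 78.7 CPM in TNFα, but at 4.45, 4.63 and 4.79 CPM in E2 and 2.91, 3.46 and 4.58 CPM in E2+ TNFα libraries. KRT86, which lies beside it on chromosome 12, was at 1.52, 1.25 and 1.38 CPM in vehicle, 6.55, 4.05 and 10.7 in TNFα, 1.09, 0.478 and 0.723 in E2 and 0.247, 0.98 and 0.42 CPM in E2+ TNFα libraries. The latter rest on 3 to 16 counts per E2 library and 4 to 28 counts per E2+ TNFα library. The values of KRT81 rest on 29 to 65 and 47 to 153 counts in the same 2 groups. For both genes TNFα libraries were the highest and every library with E2 was below every library without it.

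**Figure D3:**
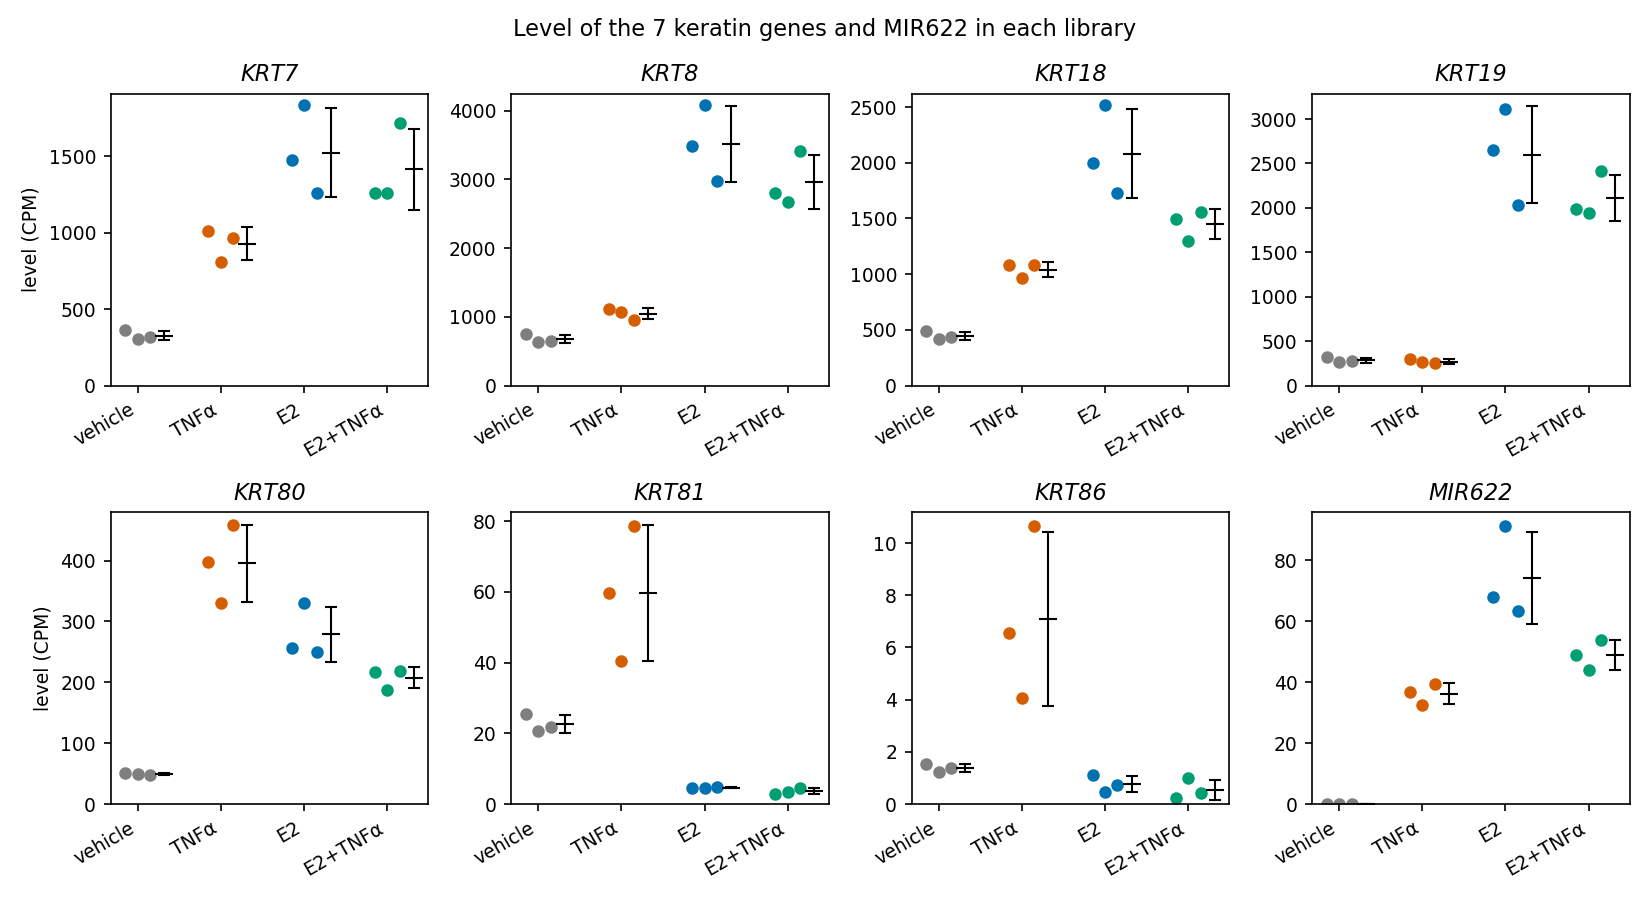
Each panel shows 1 gene, each point the level in CPM in 1 library, and black bars the mean ± SD (n = 3) of vehicle, TNFα, E2 and E2+ TNFα groups, on a linear axis from 0. KRT7, KRT8, KRT18, KRT19 and MIR622 are highest in the groups with E2, KRT80 is highest with TNFα (331 to 458 CPM), and KRT81 and KRT86 are lowest with E2.

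Libraries with and without E2 did not overlap for 7 of the 8 members, 5 of them higher with E2 (KRT7, KRT8, KRT18, KRT19, MIR622) and 2 lower (KRT81, KRT86), with KRT80 the exception. Over all genes tested, 19.3% separated the 6 libraries with E2 from the 6 without it, 11.8% as all higher and 7.48% as all lower. KRT86 passed the filter only through TNFα libraries and MIR622 only through libraries other than vehicle, so their separation is no support. Of the 7 other keratins tested, 5 were also separated, all as higher. Among these, KRT13 and KRT16 passed the filter only through libraries with E2.

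Addition of E2 to TNFα-treated cells was the comparison in which E2 could be followed without vehicle libraries. Of the 8 members, 4 passed the threshold between E2+ TNFα and TNFα (all genes, 5.56%), KRT8 and KRT19 as higher (all genes, 3.55%) and KRT81 and KRT86 as lower (2.01%). The median log2 fold change of the members was 0.46, beside 0.04 over all genes tested. KRT19 was higher by 2.97 ± 0.16 (log2, ± SE; adjusted *p* = 2.57e-09), and KRT8 by 1.502 ± 0.14 (9.20e-07). KRT81 fell by 4.003 ± 0.24 (6.89e-09) and KRT86 fell by 3.60 ± 0.44 (1.22e-05). KRT86 passed the filter only through its TNFα libraries, so a fall against them was favoured beforehand and its call is no support. The other keratins differed by less than the threshold, KRT7 by 0.61 ± 0.16 (0.00788), KRT18 by 0.48 ± 0.14 (0.0131) and KRT80 by -0.93 ± 0.14 (8.99e-05).

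The call for KRT8 sits on the threshold. Without the 3 vehicle libraries, a fit added after seeing the data, KRT8 was at 1.497 and 3 members were called. DESeq2 and edgeR with the size factors of DESeq2 both gave 1.47, library size alone 1.46, no filter 1.496, edgeR's own filter 1.498 and an unwanted factor from housekeeping genes 1.47, all just short of it. It also fell short without vehicle replicate 2 (1.49), TNFα replicate 2 (1.49987) or 3 (1.44), E2 replicate 1 (1.48), 2 (1.44) or 3 (1.48), or E2+ TNFα replicate 3 (1.39). KRT86 was not tested without any 1 of the TNFα libraries, since it then no longer passed the filter.

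E2 set directly against TNFα gave the same 4 calls (all genes, 5.97%, with 3.49% higher and 2.48% lower), with a median of 0.86 beside 0.01. With an unwanted factor 3 were called, since KRT8 came to 1.495. KRT19 was 3.26 ± 0.17 higher (adjusted *p* = 7.92e-10) and KRT8 1.75 ± 0.14 higher (1.80e-07) in E2 libraries. KRT81 fell by 3.69 ± 0.25 (2.095e-08) and KRT86 fell by 3.09 ± 0.47 (0.000101). The call of KRT86 is again no support, since only the TNFα libraries brought this gene past the filter. KRT7 was 0.71 ± 0.16 higher (0.00247) and KRT80 differed by -0.51 ± 0.14 (0.0091), both under the threshold. The comparison shares its TNFα libraries with the preceding one.

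Addition of TNFα to E2-treated cells changed none of the 8 members by edgeR's threshold, and 0.407% of all genes passed it. An unadjusted *p* under 0.05 was found for 3 members, an adjusted *p* of at most 0.1 for 2 (KRT18 and MIR622; all genes, 6.0%), and DESeq2 called 0. All 8 fitted values were below 0, with a median of -0.37 beside 0.01 over all genes, although that of KRT7 (-0.11) turned to 0.02 with library size only, 0.20 with an unwanted factor and 0.06 with the trends removed, and to 0.02 without E2 replicate 2. The interval of the difference was -0.52 to 0.03 for KRT8, -0.60 to 0.0017 for KRT19 and -0.70 to -0.15 for KRT80 (95%, log2), so that larger changes of these 3 lie outside it. KRT86 had an interval of -1.61 to 0.59.

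**Figure D4:**
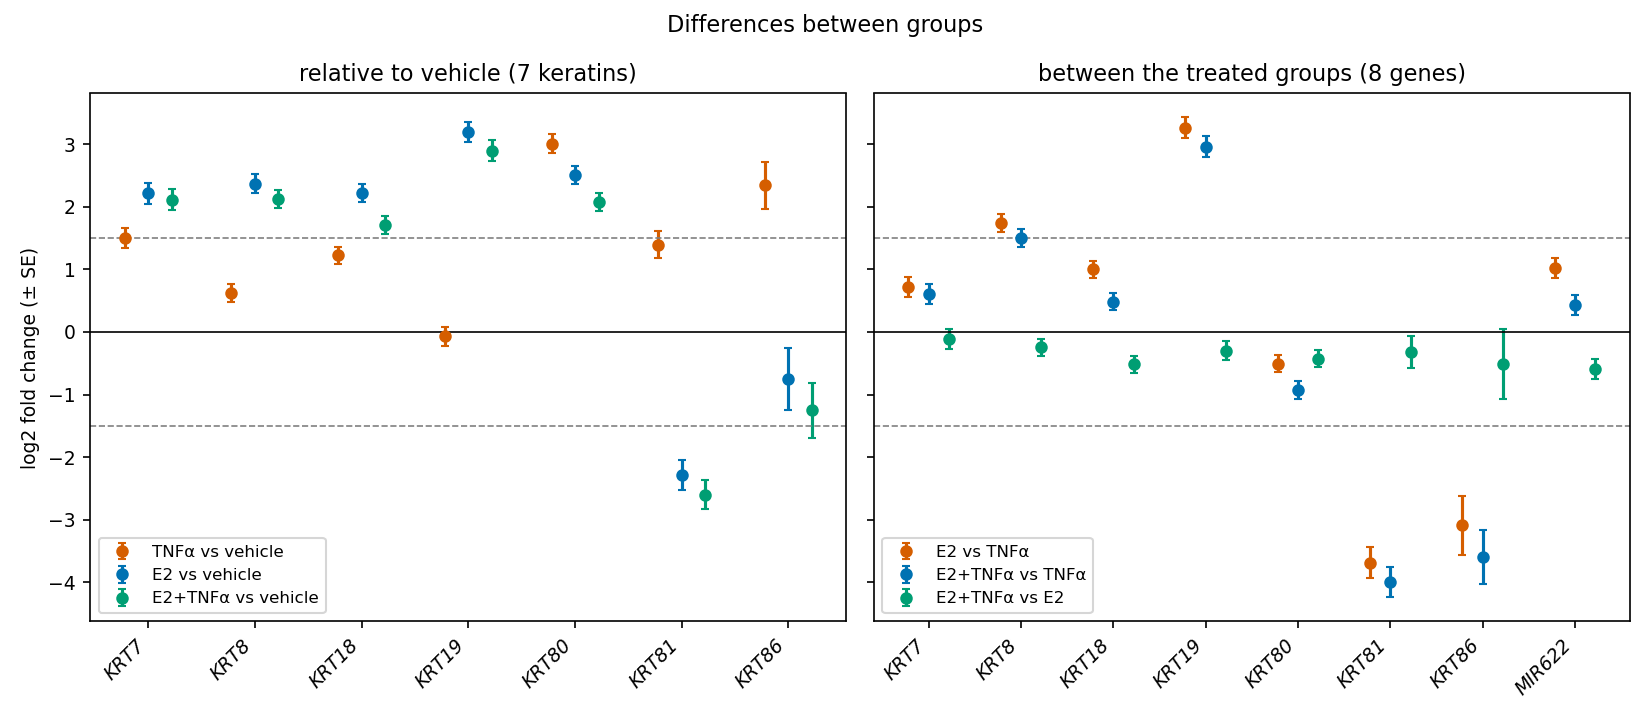
Points are log2 fold changes and bars the SE from the fit across all genes, for 7 keratins relative to vehicle (left) and for all 8 genes between the treated groups (right), with dashed lines at the threshold of 1.5. KRT19 and KRT8 are higher and KRT81 and KRT86 lower in both comparisons with TNFα libraries, and values for E2+ TNFα relative to E2 lie between -0.60 and -0.11.

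Relative to vehicle, E2 gave 7 calls among the 8 members (all genes, 30.5%), 6 as higher (9.87%) and 1 as lower (20.6%). KRT19 was higher by 3.20 ± 0.17 (adjusted *p* = 6.11e-10), KRT80 by 2.51 ± 0.15 (1.97e-09), KRT8 by 2.37 ± 0.15 (3.55e-09), KRT18 by 2.23 ± 0.14 (5.69e-09) and KRT7 by 2.22 ± 0.17 (1.99e-08), and KRT81 fell by 2.29 ± 0.24 (6.30e-07). MIR622 was the other gene called. It passed the filter only through libraries other than vehicle, so its call here and in the other comparisons with vehicle is no support. The median of the members was 2.30, also with MIR622 at its bound, beside -0.02 over all genes. KRT86 differed by -0.75 ± 0.50 (0.181), which turned to 1.46 with an unwanted factor. With the trends of GC content and length removed, KRT19 stayed above the threshold at 2.12 and KRT80 at 1.88 and KRT81 below it at -3.22, whereas KRT8 (1.48), KRT7 (1.35) and KRT18 (1.22) came under it and KRT86 (-1.61) passed it. With an unwanted factor, 3 members were called, namely KRT19 (2.13), KRT81 (-3.52) and MIR622.

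TNFα relative to vehicle gave 4 calls, all higher (all genes, 26.7%, with 6.64% higher), with a median of the members of 1.45 beside 0.01. KRT80 was higher by 3.01 ± 0.15 (adjusted *p* = 5.88e-10), KRT86 by 2.34 ± 0.38 (4.94e-05) and KRT7 by 1.51 ± 0.16 (9.09e-07), beside MIR622. The call of KRT86 is no support, since this gene passed the filter only through the TNFα libraries. KRT81 (1.398 ± 0.21, adjusted *p* = 2.31e-05) and KRT18 (1.22 ± 0.14, 1.575e-06) were under the threshold, as was KRT8 (0.63 ± 0.14, 0.0008185), which turned to -0.17 with the trends removed and -0.11 with an unwanted factor. KRT19 was at -0.07 (approximate 95% interval -0.37 to 0.23), but came to -1.0003 with the trends removed (edgeR, adjusted *p* = 5.74e-09) and -0.86 with an unwanted factor (0.12). With the trends removed, KRT80 (2.42) and MIR622 remained called, while KRT7 was at 0.71, KRT86 at 1.44, KRT81 at 0.45 and KRT18 at 0.399. The call of KRT7 was lost in 8 of the 12 fits that left out 1 library, namely vehicle replicate 1 (1.48), 2 (1.35) or 3 (1.397), TNFα replicate 1 (1.45) or 3 (1.48), E2 replicate 1 (1.49) or 3 (1.49) and E2+ TNFα replicate 1 (1.49). Without TNFα replicate 2, KRT81 passed at 1.61.

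E2+ TNFα relative to vehicle again gave 7 calls (all genes, 25.1%), 6 higher (7.52%) and 1 lower (17.6%), with a median of 2.099 beside -0.03. The log2 fold changes were 2.90 for KRT19, 2.13 for KRT8, 2.11 for KRT7, 2.08 for KRT80, 1.71 for KRT18 and -2.60 for KRT81, with SEs of 0.14 to 0.23. KRT86 differed by -1.26 ± 0.45 (adjusted *p* = 0.0187), which was 0.45 with an unwanted factor and -1.94 without E2+ TNFα replicate 2. With the trends removed, KRT19 (2.05), KRT80 (1.56), KRT81 (-3.44), KRT86 (-2.01) and MIR622 were called, and KRT8 (1.43), KRT7 (1.41) and KRT18 (0.96) were not. These comparisons share the 3 vehicle libraries, and their agreement is no result. Of the calls over all genes, 32.4% (E2), 24.9% (TNFα) and 29.96% (E2+ TNFα) were higher, against 52.6%, 46.7% and 56.5% with the trends removed, 55.6%, 40.4% and 56.5% with an unwanted factor and 17.4%, 16.4% and 20.03% with library size only. Library size only moved the median of all genes to -0.38, -0.19 and -0.26.

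Whether the TNFα difference was the same with and without E2 was tested as the interaction of both agents, which rests on the vehicle libraries. Of the 8 members, 6 passed, all with a smaller TNFα difference in the presence of E2 (all genes called, 31.8%, and called lower, 9.29%), with a median of -1.73 beside -0.01. The largest among keratins was KRT80 (-3.44 ± 0.20, adjusted *p* = 1.30e-08), which was 3.01 higher with TNFα alone and differed by -0.42 with TNFα in E2-treated cells, and it stayed called with the trends removed (-2.74) and with an unwanted factor (-2.36). KRT18 (-1.74), KRT81 (-1.71) and KRT7 (-1.61) passed in the main fit but were at -0.66, -0.68 and -0.65 with the trends removed. KRT86 was at -2.85 ± 0.69, and at -1.85 with the trends removed. Since only the TNFα libraries brought KRT86 past the filter, its call is no support. MIR622 was also among the 6, but its value depends on the 0 counts in vehicle, so its call is no support either. KRT7 fell short without vehicle replicate 2 (-1.44) or 3 (-1.486) and KRT81 without TNFα replicate 3 (-1.47). KRT8 (-0.87) and KRT19 (-0.23) were under the threshold and above 0 with the trends removed (0.12 and 0.93) and with an unwanted factor (0.08 and 0.81), KRT19 also with library size only (0.10).

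The partners KRT8 and KRT18 did not keep a fixed proportion, a measure that does not depend on library scaling. There were 1.54, 1.52 and 1.505 KRT8 counts per KRT18 count in vehicle, 1.03, 1.12 and 0.881 in TNFα, 1.74, 1.62 and 1.72 in E2 and 1.87, 2.05 and 2.19 in E2+ TNFα libraries. The 4 groups did not overlap, TNFα being the lowest and E2+ TNFα the highest. The exact permutation test gave *p* = 6.49e-05, the smallest that 369600 assignments can give, and an adjusted *p* of 0.000195 over 3 ratios. Without the vehicle libraries the adjusted *p* was 0.0107 by the same exact permutation test. Both genes have copies elsewhere, since 33.9% of the 50-base exon windows of KRT8 and 32.7% of those of KRT18 occur exactly at another place in hg38. Their exons overlap on opposite strands over 135 bases. The kit marks strand, and the strand setting of the counting is not given in the sources used here. The part of these reads in the ratio was not tested.

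For KRT81 and KRT86 the proportion varied widely. There were 16.7, 16.5 and 15.8 KRT81 counts per KRT86 count in vehicle and 9.11, 9.96 and 7.38 in TNFα libraries. In E2 libraries the ratio was 4.06, 9.67 and 6.63, and in E2+ TNFα libraries 11.8, 3.54 and 10.9, with few KRT86 counts behind each. The exact permutation test gave *p* = 0.0608 across the groups (adjusted *p* = 0.0608), and 0.00244 adjusted without E2+ TNFα replicate 2. KRT81 and KRT86 were 96.6% identical over 1325 aligned bases, 36.8% and 32.5% of their exon windows had an exact copy elsewhere, and their exons overlap on opposite strands over 39 bases, so that the split of reads between them is uncertain. By contrast, 0.51% of the windows of KRT19, 0.4% of KRT80 and 4.53% of KRT7 had an exact copy.

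Levels of different members were compared per length, as RPKM on the normalized library sizes. In vehicle, KRT8 (299 ± 27.5 RPKM, SD, n = 3) and KRT18 (289.97 ± 24.04) overlapped at the top, followed by KRT19 (193 ± 20.3), KRT7 (126 ± 11.8), KRT80 (11.1 ± 0.395) and KRT81 (9.94 ± 1.11), of which the last pair overlapped, and KRT86 (0.558 ± 0.0561). In TNFα libraries KRT18 (678 ± 43.9) was above KRT8 (461 ± 36.9), and KRT7 (358 ± 42.2) was above KRT19 (184 ± 16.7). In E2 libraries KRT19 (1766 ± 370.3), KRT8 (1548 ± 244) and KRT18 (1356 ± 261) overlapped with their neighbours in that order. In E2+ TNFα libraries KRT19 (1437 ± 178) and KRT8 (1306 ± 175) overlapped and KRT18 (946 ± 87.6) was below both. The RPKM of MIR622 (377 ± 36.6 in TNFα, 772 ± 156 in E2, 509 ± 51.1 in E2+ TNFα) overlapped with that of KRT7 in all 3 groups. Its annotated length of 96 bases is short against the fragments sequenced, so this level is not comparable in the same way.

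In genomic order (hg38), KRT80 (chr12:52168996-52192000), KRT7 (chr12:52233170-52252667), KRT86 (chr12:52274631-52309163), KRT81 (chr12:52285913-52308410), KRT8 (chr12:52897187-52949866) and KRT18 (chr12:52948871-52952901) lie in the type II cluster of chromosome 12, with KRT18 the type I exception, and KRT19 (chr17:41523617-41528389) lies in the type I cluster of chromosome 17. Neighbours did not move as one. KRT81 and KRT86, which lie between KRT7 and KRT8, were the genes with lower levels in E2 libraries.

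The 8 other keratins in the table, of which KRT83 did not pass the filter, were compared next. KRT13, a type I keratin of stratified mucosa, was at 1.33, 1.22 and 1.07 CPM in vehicle and 0.198, 0.06525 and 0 CPM in TNFα libraries (0 to 6 counts). It was at 137, 159 and 139.7 CPM in E2 and 116, 121 and 153 CPM in E2+ TNFα libraries. KRT15 and KRT17, type I keratins of basal cells, were at 35.2 to 46.3 CPM and 12.4 to 20.3 CPM in the 6 libraries with E2 and at 5.15 to 12.5 CPM and 0.468 to 4.45 CPM in the 6 without it. All 3 were higher in E2+ TNFα than in TNFα libraries, KRT13 by 10.29 ± 0.30, KRT17 by 4.59 ± 0.29 and KRT15 by 2.64 ± 0.19 (log2, adjusted *p* = 4.31e-12, 1.01e-08 and 4.08e-08). The values for KRT13 and KRT17 rest on few counts with TNFα (9 to 27 for KRT17). KRT13 passed the filter only through the 6 libraries with E2, and KRT17 only through the 9 libraries outside the TNFα group. Rises of both against TNFα libraries were thus favoured beforehand, and their calls are no support.

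Of the 7 other keratins tested, 3 passed as higher (all genes, 3.55%) and 0 as lower (2.01%) between E2+ TNFα and TNFα, with a median of 1.16. The 3 include KRT13 and KRT17, whose calls are no support. KRT34, a hair keratin of type I, differed by 1.16 ± 0.15, KRT16 by 1.02 ± 0.30 and KRT10 by 0.48 ± 0.16, and KRT33B by -0.04 ± 0.39, which turned to 0.03 with the trends removed. Between E2+ TNFα and E2, 0 of the 7 passed by edgeR or DESeq2 (all genes by edgeR, 0.407%), and 1 had an unadjusted *p* under 0.05. Relative to vehicle, KRT13 fell by 3.54 ± 0.40 and KRT17 fell by 2.69 ± 0.28 with TNFα (adjusted *p* = 1.53e-06 and 7.13e-07) and were higher by 6.90 ± 0.22 and 1.91 ± 0.24 with E2 (4.01e-12 and 3.37e-06). With the trends removed, KRT13 was at -4.31 with TNFα and 5.96 with E2, and KRT17 at -3.61 and 0.87. The rise of KRT13 with E2 and the fall of KRT17 with TNFα were favoured by the filter, and these calls are no support. KRT34 was at 38.6 to 40.8 CPM in vehicle, 10.2 to 13.99 in TNFα, 23.9 to 24.6 in E2 and 25.3 to 31.97 CPM in E2+ TNFα libraries. The hair keratins KRT34 and KRT81 did not share a direction, since KRT34 was lower and KRT81 higher in TNFα than in vehicle libraries, with KRT34 at -1.66 ± 0.15 on the log2 scale (-2.23 with the trends removed and -1.86 with library size only).

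**Figure D5:**
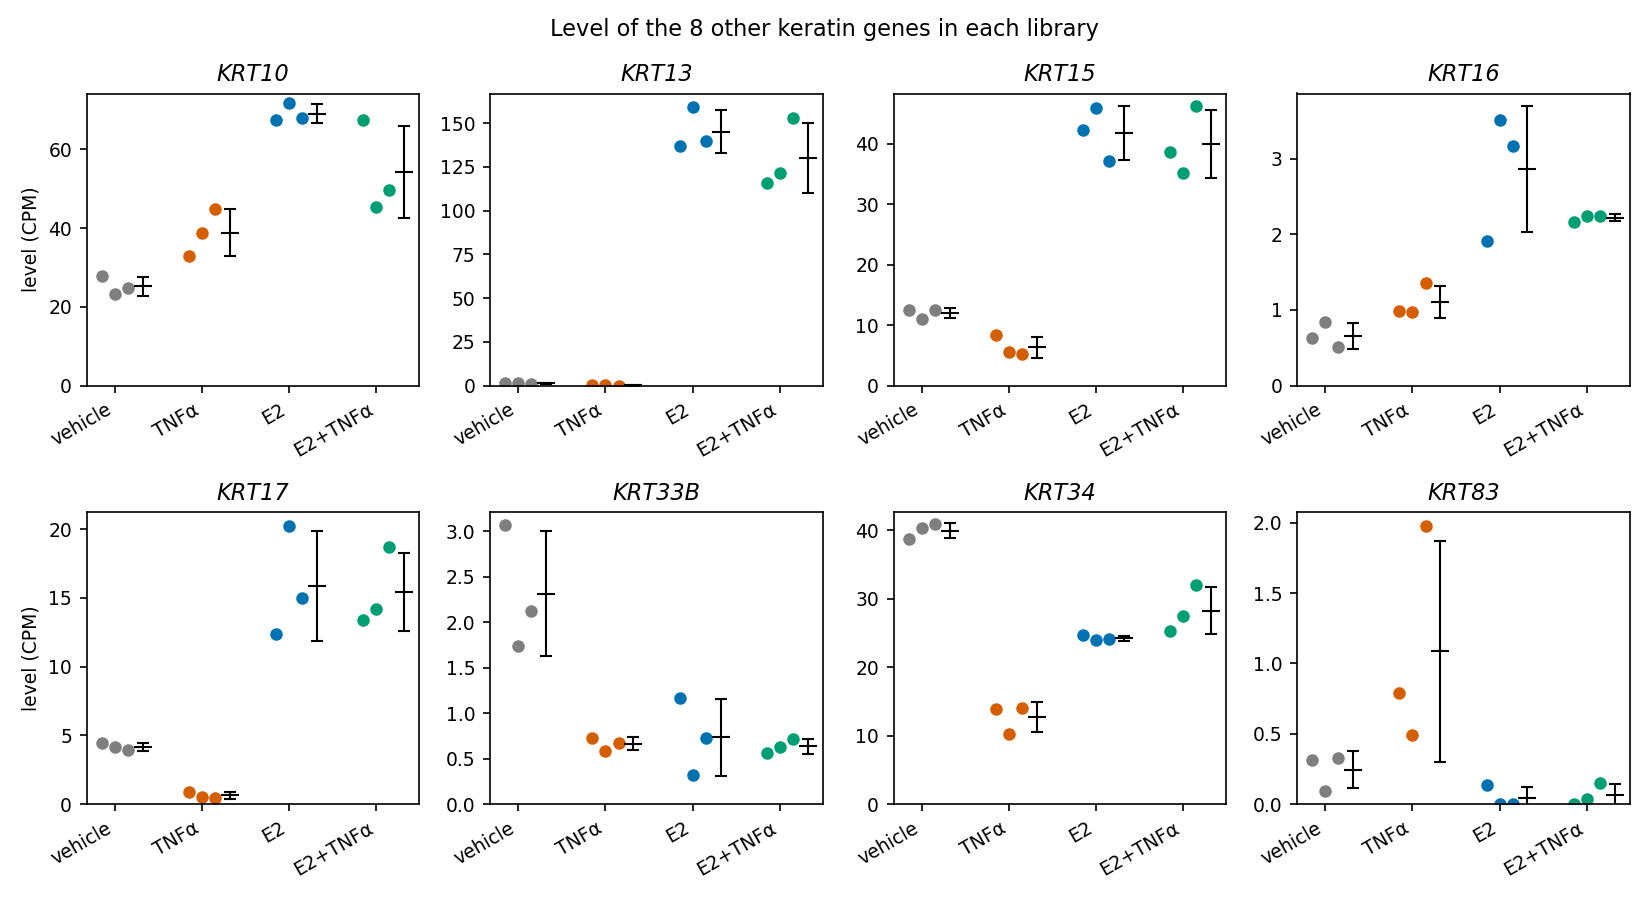
Each panel shows 1 of the 8 other keratins in the table, with points for the level in CPM in each library and black bars for the mean ± SD (n = 3), on a linear axis from 0. KRT13, KRT15 and KRT17 are highest in the groups with E2, and KRT34 and KRT33B are highest in vehicle.

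Genes that act with keratins were taken as lists, described here by counts. Of 20 genes of filament attachment (desmosomes, hemidesmosomes and linkers), 15 were tested. Between E2+ TNFα and TNFα, 2 were higher (all genes, 3.55%) and 0 lower (2.01%), with a median of 0.59 beside 0.04 over all genes. COL17A1, a hemidesmosome collagen, was at 123 ± 19.8 CPM (SD, n = 3) in E2+ TNFα and 3.51 ± 1.24 CPM in TNFα libraries (log2 5.09 ± 0.23 SE, adjusted *p* = 2.83e-10), and JUP, which encodes plakoglobin, at 240.5 ± 57.8 and 76.2 ± 5.73 CPM (1.66 ± 0.17, 1.62e-06). Of 15 transcription factors of epithelial keratin genes, 8 were tested and 2 were higher (all genes, 3.55%), ELF3 (388 ± 29.6 against 36.04 ± 2.39 CPM, log2 3.43 ± 0.12, 1.70e-11) and OVOL2 (2.52 ± 0.497 against 0.642 ± 0.12 CPM, log2 1.97 ± 0.38, 0.000857).

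Of 14 keratin binding partners and modifiers, all tested, 1 was higher (all genes, 3.55%), HSPB1, the small heat shock protein that associates with keratin filaments (947 ± 191 against 310.04 ± 25.4 CPM, log2 1.61 ± 0.17, adjusted *p* = 2.71e-06). Of 14 other intermediate filament genes, 6 were tested and 0 passed by edgeR or DESeq2, although 4 had an unadjusted *p* under 0.05. The medians of the last 3 lists were 0.45, 0.57 and -0.11. Between E2+ TNFα and E2, 0 of the 43 genes tested in the 4 lists passed by edgeR or DESeq2, and 8 had an unadjusted *p* under 0.05. Among the 20 housekeeping genes, 0 passed by either tool in both comparisons, with 13 and 7 at an unadjusted *p* under 0.05. Of all genes, 45.3% (E2+ TNFα and TNFα) and 6.0% (E2+ TNFα and E2) reached an adjusted *p* of at most 0.1 by edgeR. The counts at an unadjusted *p* are therefore no result about these lists.

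By correlation of log2 CPM over 12 libraries, HSPB1 was the gene most similar to KRT8 (Pearson's *r* = 0.999), followed by ATF5 and CLTB (0.996 and 0.995). SELENOW, ST6GALNAC6 and SAA1 (0.997 each) were the most similar to KRT18, for which KRT8 came at place 982 (0.930). CD300C (0.996), SLC25A42 and CST1 (0.995 each) were the most similar to KRT19, and AARS (0.995), IL11 (0.993) and MTHFD1L (0.989) to KRT81. The libraries share treatments and the vehicle group, and no test is attached.

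Markers of epithelial and mesenchymal cells had no common direction. Of 11 luminal markers 6 were in the table (160 to 293 CPM summed), and the libraries with and without E2 did not overlap for 3 of them (all genes, 19.3%). CDH1, the epithelial cadherin, was at 1.77 to 3.62 CPM in the 6 libraries without E2 and 32.2 to 53.4 CPM in the 6 with it, and CLDN7, a claudin of tight junctions, at 29.8 to 59.1 and 64.2 to 88.2 CPM. GATA3, a luminal transcription factor, went the other way, at 7.59 to 14.5 CPM without and 3.67 to 6.83 CPM with E2, and EPCAM, CLDN3 and CLDN4 overlapped.

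Of the 8 genes listed as defining for MDA-MB-231, which are mesenchymal or invasive in character, CAV1 was higher and TGFBI lower in all libraries with E2, and VIM, CD44, AXL, ZEB1 and MSN overlapped. Between vehicle and the 9 other libraries, ZEB1, CD44 and AXL did not overlap (all genes, 65.5%), and VIM, CAV1, MSN and TGFBI did. ZEB1, a mesenchymal factor, was at 19.9 to 26.8 CPM in vehicle and 0.478 to 3.36 CPM in the other 9. CD44 (722 to 787 CPM in vehicle, 829 to 1685 in the others) and AXL (1148 to 1236 and 1347 to 1890) were higher, and VIM, which encodes vimentin, overlapped (1527 to 1589 and 1042 to 1668 CPM). Of 5 markers of stroma and blood 2 were in the table (7.18 to 17.1 CPM summed). The part of these markers in the keratin values was not tested.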

How the data were processed

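The 8 genes and all lists were chosen with earlier results of these data known. The authors prepared stranded mRNA libraries, sequenced 50-base paired-end reads, mapped them and assigned them to genes with featureCounts; TopHat2 2.1.0, featureCounts and hg38 stand in the submitters' processing notes. The deposited values are whole-number counts per gene, without the RUVseq batch correction that the paper describes. The batches, the strand setting and the treatment of reads with several matches are not given in the sources used here. Library totals were 7.65 to 39.9 M (M, mega), so counting error matters mainly for KRT86, KRT13, KRT16, KRT17, KRT33B and MIR622, and for KRT81 with E2. Floors of 3 counts cover counting error only.

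Of 12567 entries, 46 exact repeats were dropped, as were 70 that duplicated another symbol's locus and counts. Genes reaching an RPKM of 1 in 3 or more libraries (11303) entered 1 fit of 4 group means in edgeR 4.0.16 (R 4.3.3), with TMM scaling and quasi-likelihood F tests. A gene was called at a log2 fold change of at least 1.5, *p* under 0.05 and a Benjamini-Hochberg adjusted *p* of at most 0.1. On simulated counts for E2+ TNFα relative to TNFα, 200 of 200 changed genes were recovered with 0 false calls. Every simulated gene had the same spread, all changes were set past the threshold, and no trends or other differences were added. This checks the code and gives no error rate for the real libraries. CPM and RPKM use the normalized library sizes.

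Ratios were tested on log2 counts (pseudocount 0.5) by exact permutation of the 12 libraries. Sequences were compared with blastn 2.17.0 and by exact 50-base windows, with GENCODE v44. The genes named are the 8 members, the other keratins by symbol, and in each further list the 2 largest calls in each direction between E2+ TNFα and TNFα or E2. Entries named beside MIR622 were chosen after their values were seen. Alternatives were size factors of DESeq2, library size only, no filter, edgeR's own filter, replicate numbers as a block, 1 unwanted factor computed on 20 housekeeping genes, loess trends (span 0.3) over exon GC content and length subtracted in every library, DESeq2 1.42.0, the 2 compared groups only, and each library left out. For the ratios they were a pseudocount of 3 and ranks. Fits without the vehicle libraries were added after seeing the data. A gene of the marker lists is not reported here.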

Additional observations from a re-analysis of the deposited data

Results flagged for a closer look

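The difference made by TNFα was not the same with and without E2 for 9 keratin and MIR622 entries, by the interaction term of the fit (edgeR, log2, threshold 1.5). It was below 0 for KRT80 (-3.44), KRT86 (-2.85), KRT18 (-1.74), KRT81 (-1.71) and KRT7 (-1.61), and above 0 for KRT13 (3.39), KRT17 (2.67) and KRT34 (1.88). The fitted value of MIR622 (-13.51) depends on the 0 counts in vehicle and gives no bound on a fold. With the trends of GC content and length removed, KRT13 (4.39), KRT17 (3.79) and KRT34 (2.67) were again above the threshold. All 9 rest on the vehicle libraries, and 31.8% of all genes passed the same threshold. KRT86, MIR622 and KRT13 entered the fit only through groups in which they were high, and KRT17 only through the groups other than TNFα.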

How the results depend on the processing

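The number of members called was 7 for E2, 4 for TNFα and 7 with both relative to vehicle, 4 between E2+ TNFα and TNFα, 0 between E2+ TNFα and E2, 4 between E2 and TNFα and 6 for the interaction. An unwanted factor gave 3 for E2 and 3 with both agents relative to vehicle, 3 between E2 and TNFα and 2 for the interaction. Removal of GC and length trends gave 2 for TNFα relative to vehicle and 3 for the interaction, and library size only 3 for the interaction. With 1 library left out, the counts ranged from 2 to 4 for TNFα relative to vehicle, 2 to 4 for E2+ TNFα relative to TNFα, 3 to 4 for E2 relative to TNFα and 4 to 6 for the interaction; without TNFα replicate 1, 2 or 3, KRT86 was not tested. For the ratio of KRT81 to KRT86, the adjusted exact permutation *p* was 0.00519 with a pseudocount of 3, 0.0382 on ranks and 0.00244 to 0.143 with 1 library left out. That of MIR622 to KRT18 was 0.445 without vehicle. The cause was not tested.

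Fitted log2 values turned sign as follows. Not all were small in the main fit, where KRT86 was at -0.75 (E2) and -1.26 (E2+ TNFα) relative to vehicle. KRT16 was at -1.05 and KRT8 at -0.87 for the interaction. With library size only, KRT7 (0.021), KRT15 (0.061) and KRT17 (0.10) did so for E2+ TNFα relative to E2, and KRT19 (0.10) for the interaction. With an unwanted factor, KRT7 (0.20), KRT13 (0.015), KRT15 (0.17) and KRT17 (0.31) did so for E2+ TNFα relative to E2, KRT8 (-0.11) for TNFα, KRT86 in both E2 (1.46) and E2+ TNFα (0.45) relative to vehicle, and KRT8 (0.081) and KRT19 (0.81) for the interaction. With the trends removed, the values were 0.063 (KRT7), 0.0768 (KRT13), 0.0771 (KRT15) and 0.17 (KRT17) for E2+ TNFα relative to E2, -0.17 (KRT8) and -0.16 (KRT16) for TNFα relative to vehicle, -0.12 (MIR622) and 0.026 (KRT33B) for E2+ TNFα relative to TNFα, and 0.12 (KRT8), 0.93 (KRT19) and 0.031 (KRT16) for the interaction. KRT17 was at 0.01 with the 2 compared groups only and 0.00293 without vehicle for E2+ TNFα relative to E2. With 1 library left out, signs turned within -0.27 to 0.023 (KRT7), -0.18 to 0.0238 (KRT15), -0.18 to 0.15 (KRT17) and -0.60 to 0.19 (KRT33B) for E2+ TNFα relative to E2, -0.22 to 0.0238 (KRT19) for TNFα relative to vehicle, and -0.15 to 0.039 and -0.25 to 0.49 (KRT33B) for E2+ TNFα and E2 relative to TNFα.

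The replicate numbers did not pair the libraries, since 5 of 18 same-numbered pairs had a correlation of deviations over 0.1 (range -0.48 to 0.47). With the replicate number as a block, the counts of members called were again 7, 4, 7, 4, 0, 4 and 6, no member's call changed, and KRT33B was at 0.0016 for E2+ TNFα relative to TNFα. The adjusted exact permutation *p* of the ratios was 0.00521 (KRT8 to KRT18), 0.013 (MIR622 to KRT18) and 0.156 (KRT81 to KRT86) under the block. Depth limits KRT86 in libraries with E2, which hold 3 to 28 counts of it.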
